A study of Homo sapiens with 9 samples.

Results

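The aminoacyl tRNA synthetase genes were taken from the deposited count table by their gene names. Of 17911 genes in the table, 42 carried the words tRNA synthetase in the name, and 41 remained after a pseudogene was left out. The rule reads gene names and no measured value, though it was written with earlier results of these data known. The 41 genes comprised 21 cytosolic synthetases, 16 mitochondrial synthetases whose names end in "2, mitochondrial", YARS2, and 3 partner proteins. YARS2, tyrosyl-tRNA synthetase 2, is known as a mitochondrial enzyme, but its name in the table does not say so, and it was kept apart. The partners were AIMP1 and AIMP2, scaffold proteins of the multisynthetase complex, and AARSD1, a protein with an alanyl-tRNA synthetase domain.

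RNA-seq had been run on libraries labelled MDA-MB-231, a human triple-negative breast cancer cell line grown in RPMI with 10% fetal bovine serum. The labels describe 3 capsule samples and 6 spheroid samples formed by liquid overlay, and they divide the spheroids into small and large. All groups carry the same treatment text, which gives liquid overlay with 5% matrigel, trastuzumab (an antibody against ERBB2) and 96 h of incubation before RNA extraction. Every sample has WT as its cell type label, which the labels do not explain. The labels name no untreated group, and nothing in them says what a capsule is made of or that the numbered samples came from separate cultures, so the p-values below measure the spread between these libraries, which may be technical. The headers of the count table name 3 capsule columns, 3 columns marked MDA and L.O., and 3 columns marked Sph and WT. Neither of the last 2 sets carries a size, so small and large spheroids were not compared, and the sets are called the L.O. and the Sph.WT libraries.

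An aminoacyl tRNA synthetase joins an amino acid to its tRNA, the step that gives the ribosome its charged tRNAs. Human cells keep largely separate enzymes for the cytosol and for the mitochondrion, all encoded in the nucleus. In the cytosol, several of the enzymes are held by scaffold proteins in the multisynthetase complex. The enzymes fall into class I and class II by the fold of their catalytic domain. Several cytosolic synthetase genes are known targets of ATF4, the transcription factor of the amino acid response.

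The libraries held between 13212665 and 33263076 counts, with 13212665 to 13735221 in the capsule, 15525725 to 15988167 in the L.O. and 16605098 to 33263076 in the Sph.WT libraries. The 3 sets were not alike in cell identity markers. Levels are given as CPM, counts per 1000000 of a library total that was scaled by the trimmed mean of M-values. The 10 genes listed for MDA-MB-231 (CD44, AXL, VIM and others) summed to 630.7 to 631.9 CPM in the capsule libraries, 774.5 to 891.8 in the L.O. and 6488 to 6736 in the Sph.WT libraries. All 10 were lower in the capsule and in the L.O. libraries than in the Sph.WT libraries. CD44 averaged 2.12 CPM in the capsule, 4.97 in the L.O. and 1016 in the Sph.WT libraries. The 8 genes listed for the kidney-derived line HEK293 summed to 1918 to 2102 CPM in the capsule, 1634 to 1742 in the L.O. and 70.2 to 79.0 in the Sph.WT libraries, where NEFL, PAX2 and LHX1 had 0 counts. The capsule and L.O. libraries therefore go against the cell line label, and any difference from the Sph.WT libraries cannot be told apart from a difference in cell identity or in how the columns were made, since only the Sph.WT headers lack the fastq and subread parts of the name. Between the capsule and the L.O. libraries 8 of the 10 MDA-MB-231 genes were lower in the capsule libraries and 2 did not pass the test, where 23.0% of all genes were lower. Of the 8 HEK293 genes 5 were higher in the capsule libraries, where 22.5% of all genes were higher, and 2 were lower, with log2 differences of 0.61 in LIN28B and -1.37 in PAX2. Their part in the results below was not tested.

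The DNA around the start sites is shown first, because 7 cytosolic synthetase genes share a short motif there. RefSeq windows on GRCh38.p14, each with 250 bases before and 50 after a transcript start, matched 33 of the 41 members, among them 16 cytosolic and 13 mitochondrial genes. The motif searched was TGATGNAA on either strand, the core of the composite C/EBP-ATF element to which ATF4 is known to bind. It was found in 7 of the 16 cytosolic genes, in 0 of the 13 mitochondrial genes, in 0 of the 3 partners and in YARS2. Among all genes of the table that were tested and had a window, 2.75% held it, and 3.62% of all 35116 windows did. With the free letter fixed as C, TGATGCAA was found in 6 of the 16 cytosolic genes, against 0.694% of the tested genes. The 30 bases around each match follow on the gene's strand, 5′ to 3′, with the motif in capitals, and TTGCATCA is the motif read on the other strand.
AARS1, chr16:70289675-70289704, minus strand: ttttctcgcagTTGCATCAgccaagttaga
CARS1, chr11:3057407-3057436, minus strand: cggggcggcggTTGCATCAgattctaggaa
GARS1, chr7:30594834-30594863, plus strand: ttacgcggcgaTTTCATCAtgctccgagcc
IARS1, chr9:92293692-92293721, minus strand: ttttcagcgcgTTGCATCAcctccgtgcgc
MARS1, chr12:57488053-57488082, plus strand: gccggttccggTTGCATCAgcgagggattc
NARS1, chr18:57621804-57621833, minus strand: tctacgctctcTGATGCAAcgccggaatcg
TARS1, chr5:33440956-33440985, plus strand: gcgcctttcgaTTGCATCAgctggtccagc
YARS2, chr12:32756076-32756105, minus strand: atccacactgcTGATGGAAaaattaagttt
Counted from the transcript start of each window, the matches began 2, 33, 13 and 4 bases before the start in CARS1, GARS1, IARS1 and MARS1, and 14 and 2 bases after it in NARS1 and TARS1. In AARS1 and YARS2 they lay farther out, 187 and 197 bases before the start. The windows of GARS1 and TARS1 belong to inner transcript starts, so that their matches lay 110 and 271 bases after the outermost start of the gene, which the gene coordinates below give. A match of letters is a description of the window and shows no binding.

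Divided by exon length, the median cytosolic gene stood above the median mitochondrial gene in each of the 9 libraries. The median cytosolic synthetase had 70.9 to 75.6 CPM per kilobase in the capsule libraries, 37.3 to 47.6 in the L.O. and 44.5 to 49.0 in the Sph.WT libraries. The median mitochondrial synthetase had 13.96 to 15.2, 10.8 to 12 and 10.7 to 12.1 CPM per kilobase. The cytosolic median was thus 4.67 to 5.42 times the mitochondrial median in the capsule libraries, 3.38 to 3.97 times in the L.O. and 3.86 to 4.43 times in the Sph.WT libraries, with no overlap between the capsule libraries and either other set. The size of this gap depends on the gene length used, and with the joined exons of all transcripts in place of the basic coding ones the capsule gap fell below that of the Sph.WT libraries (a difference of -0.19 on the log2 scale, against 0.3).

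The order of levels within each compartment was wide. SARS1, the seryl-tRNA synthetase, was the highest cytosolic gene per length over all libraries, with means of 203 CPM per kilobase in the capsule, 122 in the L.O. and 117.3 in the Sph.WT libraries. FARSA, the alpha subunit of the phenylalanyl enzyme, and YARS1, the tyrosyl enzyme, came next, and in the L.O. libraries FARSA stood above SARS1 with 135 CPM per kilobase. CARS1, the cysteinyl enzyme, was the lowest over all libraries at 5.72, 3.19 and 5.27 CPM per kilobase, but in the Sph.WT libraries TARS3 lay below it at 1.65. IARS2, the isoleucyl enzyme, was the highest mitochondrial gene, with 69.2, 52.6 and 85.7 CPM per kilobase. VARS2, the valyl enzyme, was the lowest, with 3.00, 3.58 and 3.63. IARS2 lay above the median cytosolic gene in the L.O. and Sph.WT libraries and just under it in the capsule libraries. AARSD1 had 0 to 9 counts per library and was the only member that did not pass the filter on low counts, so 40 of the 41 members were tested.

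**Figure D1:**
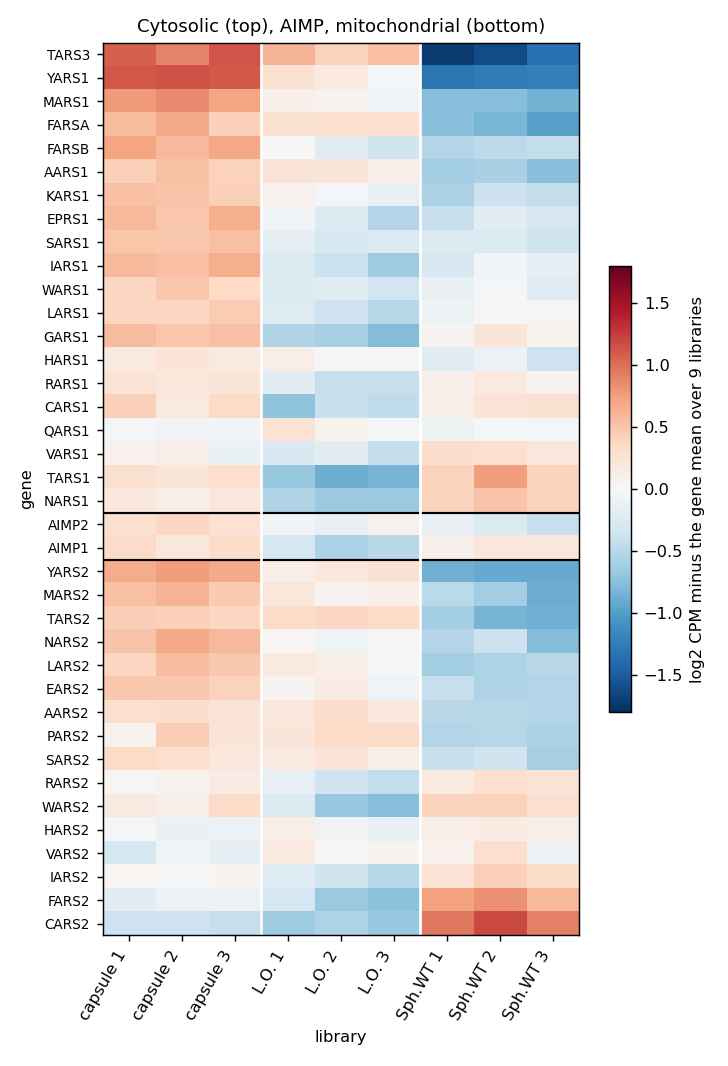
Heat map of 38 of the tested members (rows) in the 9 libraries (columns), as log2 CPM minus the gene's mean over the 9 libraries; red is above and blue below that mean. Most cytosolic rows are red in the capsule columns, while TARS3, YARS1 and YARS2 are blue and CARS2 and FARS2 red in the Sph.WT columns.

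The comparison given by the labels, capsule against all 6 spheroid libraries, called 8 members higher in the capsule libraries and 0 lower with edgeR's quasi-likelihood test at an adjusted p under 0.05. Over all 16985 genes tested, 2.3% were called higher and 1.47% lower. The 8 genes were MARS1, FARSB, IARS1, EPRS1, SARS1, KARS1 and WARS1 among the 21 cytosolic synthetases, and NARS2 among the 16 mitochondrial ones. At an unadjusted p under 0.05, 18 members were higher and 0 lower, beside 4929 of the 16985 genes passing in either direction. DESeq2 called 14 members higher and 0 lower, beside 3990 of 17911 genes called in either direction. This fit carried the gap between the 2 spheroid sets in its error, with a biological coefficient of variation of 66% against 7.73% when the 3 column sets were fitted apart. It called no gene at all when any 1 capsule library was left out, and with header number as a block it called no gene either. In each of these 4 fits 16 members were higher and 0 lower at an unadjusted p under 0.05. Beside them, 2448 of 17337 genes passed in either direction without capsule library 1. The numbers were 2620 of 17341 without capsule library 2, 2507 of 17338 without capsule library 3 and 2856 of 16985 with the block. The members are therefore described below set by set, and both capsule comparisons share the same 3 capsule libraries.

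FARSB, the beta subunit of the phenylalanyl enzyme (chr2:222566899-222656092), had 111, 101 and 110 CPM in the capsule libraries. It had 68.4, 58.6 and 53.2 CPM in the L.O. and 47.3, 49.0 and 50.4 in the Sph.WT libraries. All 3 capsule libraries stood above all 6 spheroid libraries, and the log2 difference from the 6 was 0.98 (SE 0.13, adjusted p = 0.014, edgeR). MARS1, the methionyl enzyme (chr12:57488068-57516652), had 349, 372 and 337 CPM in the capsule, 218, 214 and 194 in the L.O. and 121, 120 and 114 in the Sph.WT libraries. It was the largest of the 8 differences, 1.11 (SE 0.25, adjusted p = 0.0498, edgeR), and sat at the threshold. NARS2, the asparaginyl enzyme of the mitochondrion (chr11:78435968-78574864), had 47.1, 52.7 and 49.4 CPM in the capsule, 33.9, 31.2 and 32.1 in the L.O. and 22.8, 25.2 and 19.1 in the Sph.WT libraries. It was higher in the capsule libraries by 0.86 on the log2 scale (SE 0.19, adjusted p = 0.0465, edgeR). The 3 genes share the same order of sets, capsule above L.O. above Sph.WT.

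Against the L.O. libraries alone, 32 of the 40 tested members were higher in the capsule libraries and 0 were lower (edgeR). Over all genes tested 22.5% were higher and 23.0% lower, so the share among the members, 80.0%, lay above the background. At an unadjusted p under 0.05, 1 member was lower, QARS1, and DESeq2 also called 1 lower. Of the 21 cytosolic synthetases 19 rose, of the 16 mitochondrial ones 10 did, and YARS2, AIMP1 and AIMP2 rose as well. With library totals the calls fell to 16 cytosolic and 6 mitochondrial genes, and DESeq2 called 19 and 8. The mitochondrial count was 7 to 10 when any 1 library was left out, and 7 without the third L.O. library. The median log2 difference was 0.735 for the cytosolic genes (1.66-fold), 0.31 for the mitochondrial genes (1.24-fold) and -0.02 for all genes tested. In 33 members, all 3 capsule libraries lay above all 3 L.O. libraries, against 27.1% of all genes tested. Scaling moves these counts. With library totals in place of the trimmed mean of M-values (TMM), the median of all genes shifted by -0.15 and the higher share of all calls fell from 49.5% to 27.8%, and 24 members were then higher and 2 lower (QARS1 and VARS2).

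**Figure D2:**
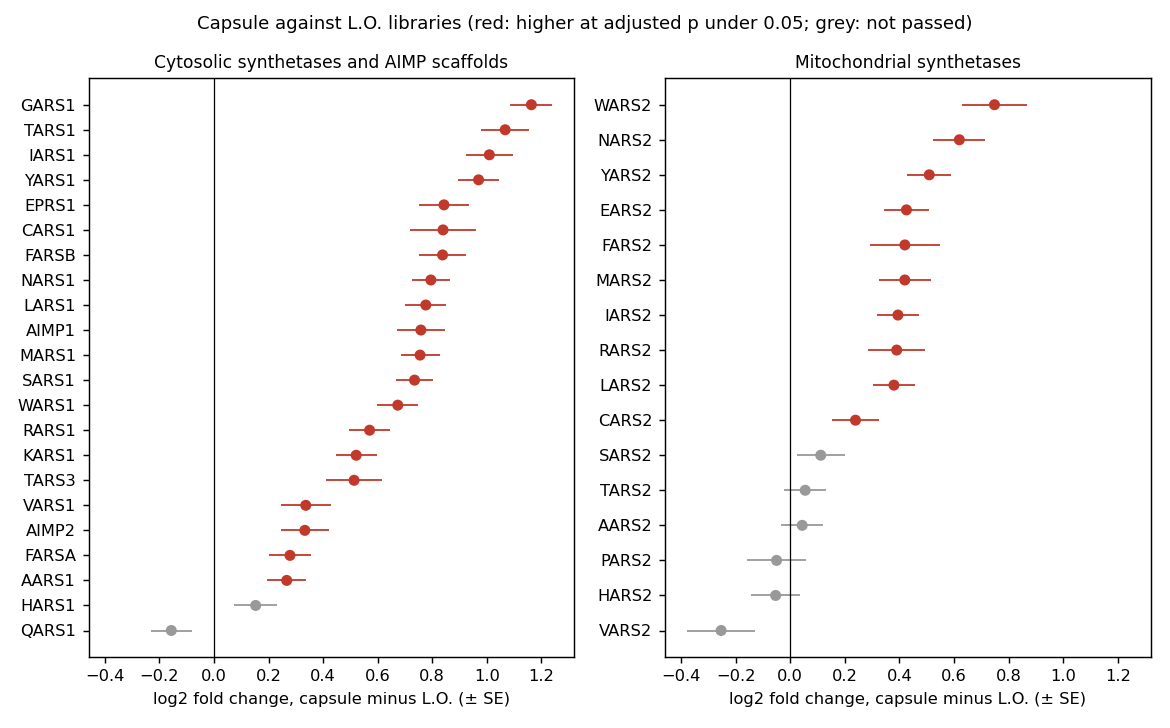
Log2 fold change of 38 of the tested members, capsule minus L.O. libraries (x axis), with its standard error, for cytosolic synthetases and AIMP scaffolds (left) and mitochondrial synthetases with YARS2 (right). Red points passed an adjusted p under 0.05 in edgeR; the cytosolic points reach 1.16 and the mitochondrial ones 0.75.

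The largest rise was in GARS1 (chr7:30594735-30634033), the glycyl-tRNA synthetase, which serves both compartments from the same gene. It had 272, 256.5 and 265 CPM in the capsule libraries and 126, 121 and 107 in the L.O. libraries. The lowest capsule library stood above the highest L.O. library, and the fitted difference was 2.24-fold (log2 1.16, SE 0.08, adjusted p = 3.66e-10, edgeR). TARS1, the threonyl enzyme (chr5:33440696-33468091), had 341, 323 and 345 CPM against 173.5, 151.5 and 156. Its rise was 2.1-fold (log2 1.07, SE 0.09). IARS1, the isoleucyl enzyme (chr9:92210207-92293697), had 524, 510.5 and 550 CPM against 296, 267 and 225. Its rise was 2.01-fold (log2 1.01, SE 0.09). YARS1 (chr1:32775239-32817358) had 533, 543 and 527 CPM against 299, 278 and 241.5, a rise of 0.97 on the log2 scale (SE 0.08). In all 4 genes the capsule libraries differed little among themselves, and the third L.O. library was the lowest of its set in GARS1, IARS1 and YARS1.

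When the test asked for a difference above 1.5-fold (edgeR's glmTreat), 8 members passed as higher, all cytosolic, and 0 as lower. Over all genes 1.02% passed as higher and 3.92% as lower. The 8 were GARS1, TARS1, IARS1, YARS1, EPRS1, FARSB, NARS1 and LARS1. At an unadjusted p under 0.05, 14 members passed as higher and 0 as lower, beside 1973 of 16985 genes passing in either direction. None of the 16 mitochondrial genes passed this test.

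The synthetases of the multisynthetase complex and those outside it gave similar counts against the L.O. libraries, where 22.5% of all genes were higher. Of the 8 synthetases of the complex, 7 rose and QARS1 did not pass, with a median log2 difference of 0.663. Of the 13 cytosolic synthetases outside it, 12 rose and HARS1 did not pass, with a median of 0.735. Against all 6 spheroid libraries 4 of the 8 and 3 of the 13 were called higher and 0 lower, beside 2.3% of all genes higher. Among the 3 scaffold proteins, which include EEF1E1, all rose over the L.O. libraries. AIMP1 had 58.0, 52.7 and 57.6 CPM in the capsule and 36.5, 30.6 and 32.4 in the L.O. libraries, a 1.69-fold difference. AIMP2 rose 1.26-fold and EEF1E1 1.75-fold. AIMP2 shares 38.7% of its exon bases with EIF2AK1 and AIMP1 shares 11.7% with TBCK, each on the opposite strand, and whether the counting used strand is not given in the sources used here.

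The phenylalanyl enzyme is built from alpha and beta subunits, and its genes did not move alike. FARSA had 344.5, 373 and 311 CPM in the capsule libraries and 281, 282 and 285 in the L.O. libraries, a 1.21-fold rise (adjusted p = 0.00506, edgeR). FARSB rose 1.79-fold. Per length, FARSA exceeded FARSB 4.55 to 5.94 times in the capsule libraries, 6.61 to 8.63 times in the L.O. and 3.77 to 4.68 times in the Sph.WT libraries. The L.O. ratios lay above those of both other sets in every library.

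EPRS1 (chr1:219968600-220046505) carries the glutamyl and the prolyl enzyme in a single protein. It had 403, 381 and 423 CPM in the capsule libraries, 260, 226 and 187 in the L.O. libraries and 202, 236 and 219 in the Sph.WT libraries. Its capsule libraries stood above all others, by 1.79-fold over the L.O. libraries (log2 0.84, SE 0.09). KARS1 (chr16:75627724-75647665), the lysyl enzyme, which like GARS1 serves both compartments, had 227, 224 and 211 CPM in the capsule, 165, 154 and 142 in the L.O. and 106, 119 and 116 in the Sph.WT libraries. It rose 1.44-fold over the L.O. libraries (log2 0.52, SE 0.08).

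QARS1 (chr3:49095932-49104757), the glutaminyl enzyme, passed in none of the 4 comparisons. It had 243.5, 240.4 and 241.4 CPM in the capsule libraries, 300.5, 261 and 247 in the L.O. libraries and 236, 245 and 246.5 in the Sph.WT libraries. The capsule values lay below all 3 L.O. values, and the fitted log2 difference was -0.16 with a 95% interval of -0.31 to -0.0021 (adjusted p = 0.0911, edgeR). It was called lower in the capsule libraries by DESeq2 (adjusted p = 0.0303), with DESeq2's size factors in edgeR (adjusted p = 0.0314), with library totals (adjusted p = 0.00168, edgeR) and without the third L.O. library (adjusted p = 0.0245, edgeR). A small difference between these sets is thus not settled by the data.

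HARS1 and HARS2, the histidyl enzymes of the cytosol and the mitochondrion, lie head to head on chromosome 5, with 84 bases between their RefSeq starts. Neither passed against the L.O. libraries. HARS1 had 117, 124.5 and 118 CPM in the capsule libraries against 114.5, 105 and 103 (log2 difference 0.15, 95% interval -0.01 to 0.32, adjusted p = 0.118, edgeR). HARS2 had 31.8, 30.04 and 30.3 CPM against 35.02, 31.1 and 29.5, with overlapping sets. In GENCODE 29 their exons overlap on opposite strands over 402 bases, 9.49% of the HARS1 and 14.2% of the HARS2 exons, so reads there could not be told apart without strand.

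Among the mitochondrial synthetases WARS2, the tryptophanyl enzyme (chr1:119031216-119140672), rose most over the L.O. libraries. It had 28.9, 27.6 and 32.97 CPM in the capsule libraries and 21.9, 16.1 and 15.3 in the L.O. libraries, a 1.68-fold difference (log2 0.75, SE 0.12, adjusted p = 2.57e-05, edgeR). NARS2 rose 1.54-fold, EARS2 (glutamyl), FARS2 (phenylalanyl) and MARS2 (methionyl) each 1.34-fold. RARS2 (arginyl), IARS2 and LARS2 (leucyl) rose 1.31-, 1.31- and 1.3-fold. CARS2 (cysteinyl) rose 1.18-fold, and its call did not hold without some libraries. CARS2 lost its call without the first or the second capsule library (adjusted p = 0.0815 and 0.0658, edgeR) or the first or the third L.O. library (adjusted p = 0.0637 and 0.0831, edgeR). FARS2 lost it without the second or the third L.O. library (adjusted p = 0.0542 and 0.0522, edgeR).

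The 6 mitochondrial genes that did not pass were AARS2 (alanyl), HARS2, PARS2 (prolyl), SARS2 (seryl), TARS2 (threonyl) and VARS2. Their log2 differences ran from -0.25 in VARS2 to 0.11 in SARS2. TARS2 had 91.0, 90.1 and 87.2 CPM in the capsule and 85.4, 87.2 and 85.7 in the L.O. libraries, with a 95% interval of -0.11 to 0.22 on the log2 scale. VARS2 had 11, 13.3 and 12.3 CPM against 15.6, 13.9 and 14.2, with every capsule library below every L.O. library (adjusted p = 0.104, edgeR). SARS2 shares 67.4% of its exon bases with a gene model on the same strand and 15.8% with MRPS12 on the opposite strand, which makes its counts uncertain. By enzyme class, 7 of the 8 mitochondrial class I genes rose over the L.O. libraries (median log2 difference 0.393). Of the 8 class II genes 3 did (median 0.0835), beside 22.5% of all genes. Among the cytosolic genes 8 of 9 in class I and 10 of 11 in class II rose, with medians of 0.755 and 0.521. Against the Sph.WT libraries the medians had the opposite order in both compartments, -0.166 and 0.792 in the mitochondrial and 0.438 and 0.79 in the cytosolic classes. There 3 mitochondrial class I genes were higher and 3 lower, and 6 class II genes higher and 2 lower. Of all genes 43.0% were higher and 42.0% lower in that comparison. No test of the class difference was made.

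Cytosolic and mitochondrial enzymes for the same amino acid could be set side by side in 18 pairs over 17 amino acids. EPRS1 and FARS2 each enter 2 of these pairs. Against the L.O. libraries the cytosolic gene had the larger difference in 16 of the 18 pairs, by a median of 0.406 on the log2 scale, and a common scaling factor cancels in this ordering. Threonine showed the widest gap, with 1.07 for TARS1 and 0.05 for TARS2 on the log2 scale. Per length, TARS1 stood 2.19 to 2.42 times above TARS2 in the capsule libraries and 1.06 to 1.24 times in the L.O. libraries, but 5.14 to 7.64 times in the Sph.WT libraries. Proline came next, with 0.84 for EPRS1 and -0.05 for PARS2. The 2 exceptions were tryptophan, with 0.67 for WARS1 and 0.75 for WARS2, and the alpha subunit for phenylalanine, with 0.28 for FARSA and 0.42 for FARS2. The ordering was less one-sided against the Sph.WT libraries, where the cytosolic gene had the larger difference in 13 of the 18 pairs for the capsule and in 10 of the 18 for the L.O. libraries. Threonine had the opposite order there, with -0.26 for TARS1 and 1.18 for TARS2 between the capsule and the Sph.WT libraries. Cysteine was the amino acid whose mitochondrial gene was the higher of the pair in every library, with CARS1 at 0.225 to 0.266 of the CARS2 level per length in the capsule libraries.

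**Figure D3:**
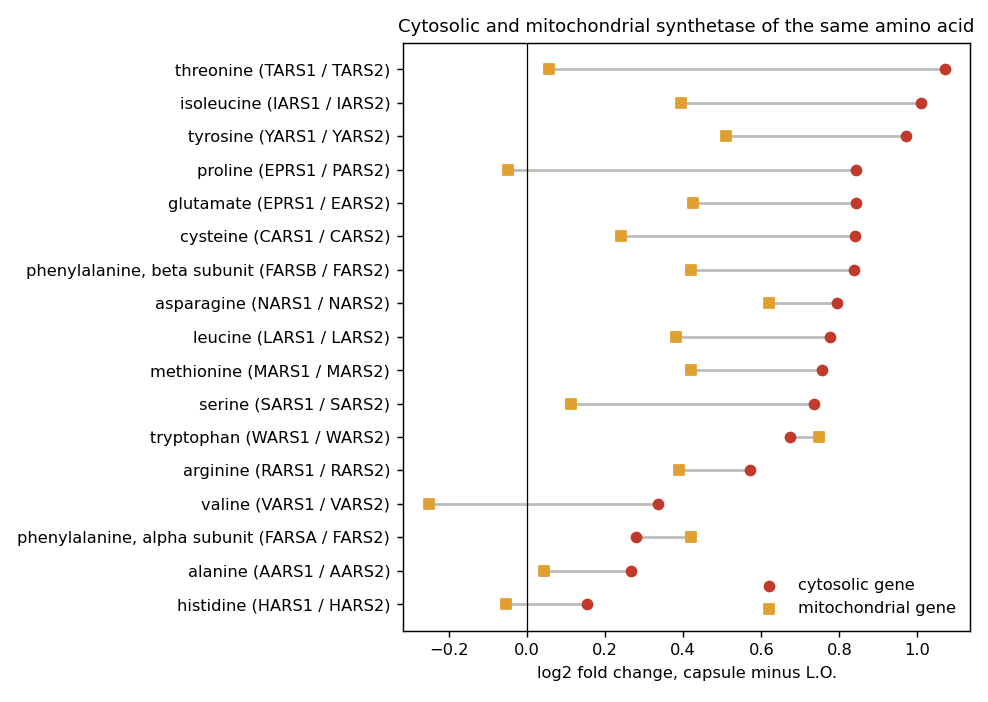
Log2 fold change, capsule minus L.O. libraries (x axis), of the cytosolic (circles) and mitochondrial (squares) synthetase for the same amino acid in 17 pairs; the line joins a pair. The circle lies to the right of the square in 15 of the 17 pairs shown.

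Summed over the genes of a compartment, the cytosolic synthetases took 5223 to 5247 CPM in the capsule libraries, 3084 to 3561 in the L.O. and 3260 to 3543 in the Sph.WT libraries. The mitochondrial synthetases took 991 to 1017, 767 to 872 and 811 to 882 CPM. For both compartments the capsule libraries stood above the other sets, while the L.O. and Sph.WT libraries overlapped on this TMM scale. As counts per 1000000 of the library total, without TMM, the cytosolic sums were 5392 to 5504 in the capsule, 3561 to 4073 in the L.O. and 2745 to 2895 in the Sph.WT libraries, and the mitochondrial sums 1023 to 1050, 886 to 997.5 and 689.7 to 720.9. On that scale the L.O. and Sph.WT libraries did not overlap. On either scale, fewer cells of a type cannot be told apart from less RNA per cell.

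**Figure D4:**
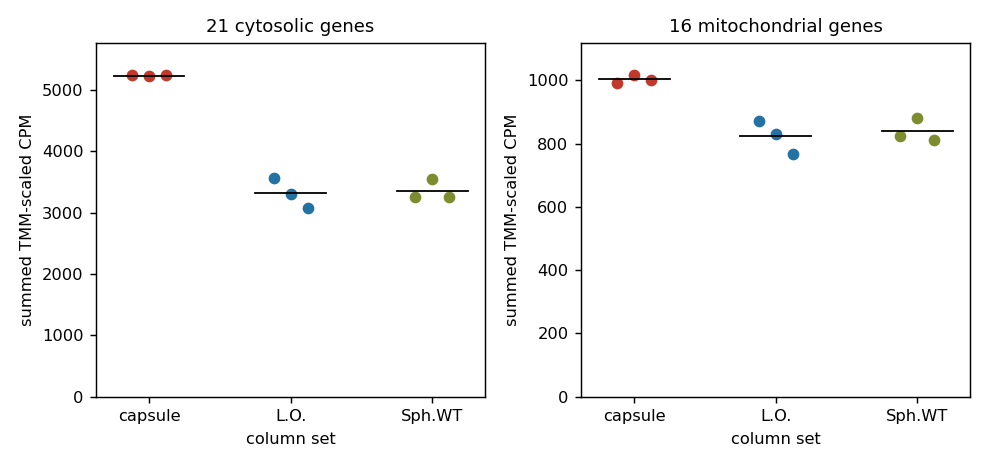
Summed TMM-scaled CPM (y axis) of the 21 cytosolic and 16 mitochondrial synthetase genes in each library, by column set (x axis), with the mean of 3 as a bar. The capsule libraries lie above the other sets in both panels, and the L.O. and Sph.WT libraries overlap on this scale but not as shares of the library total.

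Between the capsule and the Sph.WT libraries, 25 of the 40 members were higher in the capsule libraries, 9 lower and 6 did not pass (edgeR). Of all genes tested 43.0% were higher and 42.0% lower. The members thus differed gene by gene, over a range of -1.41 to 2.6 on the log2 scale. Of the cytosolic genes 14 were higher and 4 lower, and of the mitochondrial genes 9 were higher and 5 lower. Above 1.5-fold (glmTreat), 20 members were higher and 3 lower, against 31.4% and 30.3% of all genes. With library totals, the median of all genes shifted by 0.314 and the counts became 29 higher and 3 lower, beside 8742 genes higher and 5746 lower. NARS1, TARS1, VARS1, HARS2, IARS2 and VARS2 were then slightly higher in the capsule libraries and did not pass, while CARS2 and FARS2 stayed lower.

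TARS3 (chr15:101653596-101724473), a second cytosolic threonyl-tRNA synthetase, showed the widest spread between sets. It had 36.9, 32.7 and 38.6 CPM in the capsule libraries, 27.0, 23.3 and 25.5 in the L.O. and 5.32, 5.78 and 6.94 in the Sph.WT libraries. The capsule level was 6.04 times and the L.O. level 4.23 times the Sph.WT level. TARS1 ran the other way, with 370, 469 and 367 CPM in the Sph.WT libraries, 1.2 times the capsule and 2.51 times the L.O. level. Per length, TARS1 exceeded TARS3 by 7.16 to 7.91 times in the capsule, 4.92 to 5.2 times in the L.O. and 42.3 to 65.1 times in the Sph.WT libraries. YARS1 had 100, 103 and 105 CPM in the Sph.WT libraries, so that its capsule level was 5.21 times and its L.O. level 2.66 times higher. Its mitochondrial partner YARS2 (chr12:32746544-32755897) followed the same order, with 56.3, 59.7 and 56.6 CPM in the capsule, 38.4, 40.3 and 42.6 in the L.O. and 19.4, 18.8 and 18.9 in the Sph.WT libraries.

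CARS2 (chr13:110641410-110713522) was the member most above both other sets in the Sph.WT libraries. It had 109, 128 and 105 CPM there, against 43.5, 43.2 and 42.1 in the capsule and 36.0, 38.1 and 34.98 in the L.O. libraries. The Sph.WT level was 2.66 times the capsule and 3.14 times the L.O. level. FARS2 was likewise higher in the Sph.WT libraries, by 1.81 times the capsule and 2.43 times the L.O. level.

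**Figure D5:**
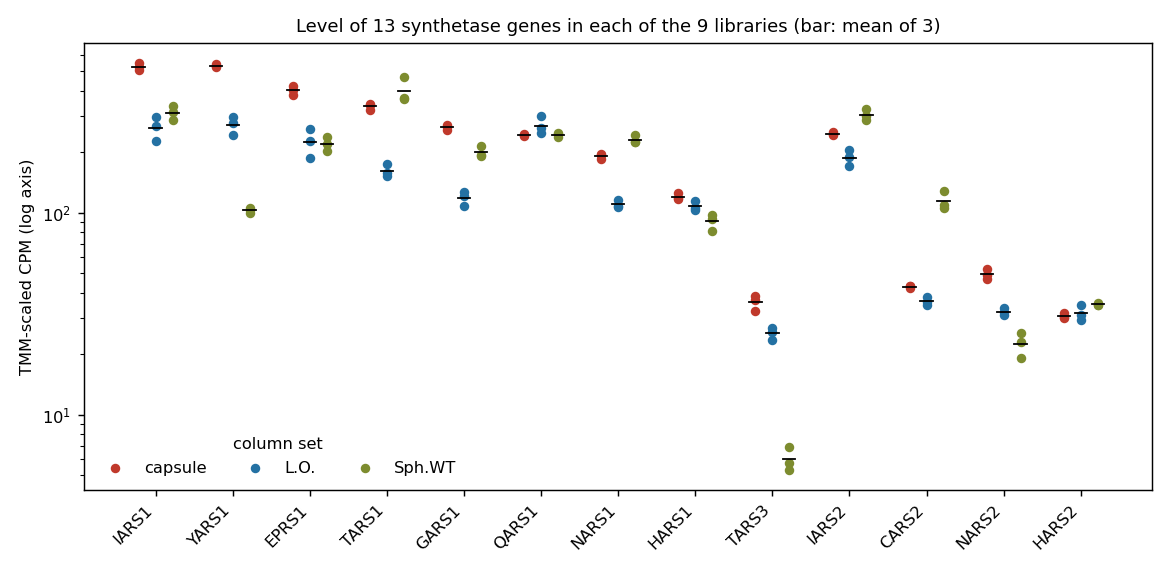
TMM-scaled CPM on a log axis (y axis) of 13 synthetase genes (x axis) in each of the 9 libraries, with the mean of 3 as a bar. QARS1 and HARS2 lie close together in the 3 sets, while YARS1 and TARS3 fall and CARS2 rises in the Sph.WT libraries.

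The members went both ways between the 2 spheroid sets, which are the libraries of the same labelled group. Of the 40 tested, 19 members were higher in the L.O. libraries, 15 lower and 6 did not pass (edgeR), with 42.4% of all genes higher and 43.1% lower. Among the cytosolic genes 8 were higher and 9 lower, and among the mitochondrial genes 9 were higher and 5 lower. Above 1.5-fold (glmTreat), 11 members were higher and 8 lower, against 31.2% and 30.5% of all genes. With library totals the median of all genes shifted by 0.464, and 26 members were higher and 9 lower. Among all genes 9349 were then higher and 5287 lower. The capsule mean was the highest of the 3 sets in 16 of the 21 cytosolic genes and in 8 of the 16 mitochondrial genes. The same share was not computed over all genes, so these counts only describe the members. NARS1, TARS1 and VARS1 in the cytosol and CARS2, FARS2, IARS2, RARS2 and WARS2 in the mitochondrion had their highest mean in the Sph.WT and their lowest in the L.O. libraries.

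The cytosolic genes with and without the promoter motif overlapped in their differences. Against the L.O. libraries, all 7 genes with a match rose, with log2 differences of 0.27 to 1.16 and a median of 0.84. Of the 9 cytosolic genes with a window and no match 7 rose, with differences of -0.16 to 0.84 and a median of 0.57. The 5 cytosolic genes without a window all rose, with a median of 0.51. Against the Sph.WT libraries the medians were 0.41 with a match and 0.79 without, the opposite order. There 4 of the 7 genes with a match were higher and 2 lower, and 7 of the 9 without were higher and 0 lower. Of the 5 genes without a window 3 were higher and 2 lower (median 0.44). Over all genes tested 43.0% were higher and 42.0% lower in that comparison.

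Other genes of tRNA charging and its use were described from lists written with earlier results of these data known. Their counts stand beside 22.5% of all genes higher and 23.0% lower between the capsule and the L.O. libraries. Of 4 genes that finish mitochondrial tRNA charging, the amidotransferase subunits QRSL1, GATB and GATC were higher in the capsule than in the L.O. libraries, and MTFMT, the formyltransferase, did not pass. Of 14 genes of mitochondrial tRNA maturation 11 rose, led by TRMT10C, a subunit of mitochondrial RNase P (log2 difference 0.75), and PUS1, a pseudouridine synthase (0.65). Of 18 genes of nuclear and cytosolic tRNA maturation 10 rose, among them ADAT2 (0.60) and METTL1 (0.48), and 1 fell, ADAT3 (-0.64), the partner of ADAT2 in the tRNA adenosine deaminase. Of the 11 mitochondrial translation factors 6 rose, led by the ribosome recycling factor MRRF (0.67). Of the 6 cytosolic elongation factors, EEF1A1 (0.65), EEF1B2 (0.72) and EEF1D (0.33) rose. EEF1A2 fell by 0.66 on the log2 scale, and EEF1G and EEF2 did not pass. Of the 4 tested genes that remove or recycle wrongly charged or stalled tRNA, DTD1, DTD2 and PTRH2 rose. Against the Sph.WT libraries, where 43.0% of all genes were higher and 42.0% lower, the capsule libraries were higher in 1 and lower in 0 of the 4 genes that finish charging, and higher in 8 and lower in 4 of the 14 mitochondrial maturation genes. They were higher in 13 and lower in 1 of the 18 nuclear and cytosolic maturation genes, higher in 3 and lower in 4 of the 11 mitochondrial translation factors, higher in 5 and lower in 1 of the 6 elongation factors, and higher in 1 and lower in 2 of the 4 recycling genes.

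ATF4 itself had 941.8 to 974.5 CPM in the capsule libraries, 530.9 to 555.3 in the L.O. and 188.3 to 195 in the Sph.WT libraries. The list of 15 amino acid response genes includes ATF4 itself. Of the 15, 14 were higher in the capsule than in the L.O. libraries, with a median log2 difference of 0.813, and DDIT3 did not pass. Over all genes 22.5% were higher and 23.0% lower there. ASNS, asparagine synthetase, rose by 1.86 and the cystine transporter SLC7A11 by 2.06 on the log2 scale. Against the Sph.WT libraries 10 of the 15 were higher in the capsule libraries and 3 lower, SLC7A11 among them (-0.72), beside 43.0% and 42.0% of all genes. The sum of the list was 3591 to 3774 CPM in the capsule, 1959 to 2044 in the L.O. and 1197 to 1293 in the Sph.WT libraries. Its genes did not all follow that order. In the L.O. libraries 9 were higher and 5 lower than in the Sph.WT libraries, beside 42.4% and 43.1% of all genes. The 5 were SLC7A11 (-2.78), CEBPB (-2.02), ATF5 (-1.33), TRIB3 (-0.91) and PSPH (-0.75). ATF4 and PHGDH, the most abundant genes of the list in the capsule libraries, are themselves part of the sum. PHGDH, an enzyme of serine synthesis, had means of 647 CPM in the capsule, 356.5 in the L.O. and 11.4 in the Sph.WT libraries.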

How the data were processed

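Raw counts per gene were deposited for 9 libraries. Per the submitters' processing notes, the authors used featureCounts, limma and hg38; aligner version, annotation and strand setting are not given in the sources used here. Per the labels' protocols, RNA was taken with TRIzol and libraries were made with TruSeq. Columns were assigned by header only. Genes passing filterByExpr (16985 of 17911) were tested with edgeR 4.0.16 in R 4.3.3: TMM scaling, quasi-likelihood test, Benjamini-Hochberg adjustment over all genes, threshold 0.05. One fit compared capsule with all 6 spheroid libraries and another took the 3 header sets apart. The standard error is the log2 fold change divided by the root of F. CPM values use TMM-scaled totals, and CPM per kilobase the joined exons of GENCODE 29 basic coding transcripts. Member coordinates and start windows are RefSeq's on GRCh38.p14. DESeq2 1.42.0, other scalings, filters and left-out libraries were alternatives. The fits were tested on simulated data drawn from the capsule means, with no gap between the L.O. and Sph.WT sets. That simulation cannot show how the fits behave with such a gap. Members and lists were chosen with earlier results of these data known. All members could be named; values by library were given for those with the largest passing differences, the extreme levels, GARS1, KARS1, EPRS1, FARSA, FARSB and QARS1, and others were added after their values were seen. No pair of libraries agreed within counting noise. Of the marker lists, the HER2-positive one (ERBB2, GRB7, STARD3) summed to 178 to 204, 220 to 255 and 259 to 293 CPM in the capsule, L.O. and Sph.WT libraries, the fibroblast one to 40.3 to 45.3, 77.7 to 87.7 and 39.1 to 50.0, the immune one to 5.92 to 7.91, 9.29 to 10.5 and 47.6 to 62.7, and the endothelial one to 0.49 to 0.95, 1.34 to 2.27 and 7.01 to 12.6; DCN, PTPRC, CD3E, LYZ and CDH5 were not analysed here. Values of a few genes are counted in the totals but are not reported here by name.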

Additional observations from a re-analysis of the deposited data

How the results depend on the processing

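Capsule against L.O.: genes called were 7732, and 839 above 1.5-fold. Without 1 library in turn they ranged from 6426 to 8018, members called higher from 29 to 32, and members called lower from 0 to 1. Members called lower were 1 with DESeq2's size factors in edgeR, 2 with library totals and 1 in DESeq2; members higher above 1.5-fold were 8. Capsule against Sph.WT: members called lower were 9, but 3 with library totals and 3 above 1.5-fold, and 6 to 9 without 1 library. L.O. against Sph.WT: 11 members were higher and 8 lower above 1.5-fold, and 9 were lower with library totals; without 1 library genes called ranged from 14312 to 14760. Capsule against all 6 spheroid libraries: the 639 genes called became 359 with library totals, 0 above 1.5-fold, 0 with the replicate block, 3990 in DESeq2 and 12643 against the mean of the 2 spheroid sets, and 0 to 566 without 1 library. Its 8 members called higher became 0 above 1.5-fold, 0 with the replicate block, 14 in DESeq2 and 31 (with 3 lower) against the mean of the sets, and 0 to 8 without 1 library. At an unadjusted p under 0.05, 2248 genes passed above 1.5-fold and 2856 with the block in edgeR. The 0 calls came without each capsule library; without the second or the third L.O. library 221 and 394 genes were called, and without the first, the second or the third Sph.WT library 117, 195 and 171. Deviations from the set means correlated over genes with r from -0.405 to 0.202 in same-numbered libraries and from -0.406 to 0.405 in the others. With 3 libraries per set these values constrain each other, so they cannot decide whether the numbers pair the libraries. The replicate block gave 7134 genes and 32 members higher for capsule against L.O.

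Directions that reversed with library totals, on the log2 scale, were AARS2 (-0.106), SARS2 (-0.0383) and TARS2 (-0.0951) against the L.O. libraries, and NARS1 (0.0422), TARS1 (0.0562), VARS1 (0.0688), HARS2 (0.116), IARS2 (0.00376), RARS2 (0.154), VARS2 (0.0292), WARS2 (0.144) and QARS1 (0.308) against the Sph.WT libraries. QARS1 also reversed with DESeq2's size factors in edgeR (0.0252), in DESeq2 (0.0242) and in a fit of only the 6 libraries compared (0.0327). Without 1 library in turn, the differences from the L.O. libraries ranged from -0.106 to 0.0201 in HARS2, reversed without the first L.O. library, and from -0.15 to 0.0392 in PARS2, reversed without the first capsule library. The gap between the cytosolic and mitochondrial medians (log2) was 2.34 in the capsule, 1.89 in the L.O. and 2.04 in the Sph.WT libraries. It was 2.46, 2.13 and 2.16 without division by length, 1.93, 1.55 and 1.62 as a mean of log2 values, 2.13, 1.51 and 2.32 with the exons of all transcripts, and 2.15 and 1.72 in the capsule and L.O. libraries with GARS1 and KARS1 left out. The capsule minus L.O. gap of 0.447 became 0.33 without division by length and 0.619 with all transcripts; the capsule minus Sph.WT gap of 0.3 became 0.128 without GARS1 and KARS1 and -0.193 with all transcripts. The fits of only 6 libraries, the set-wise DESeq2, filter, 1.5-fold and block fits, the exons of all transcripts, and YARS2 counted as mitochondrial were chosen after seeing the data. Where a value moved, the cause was not tested. AARSD1 had at most 9 counts in any library. It shares 94.3% of its exon bases with PTGES3L-AARSD1 on the same strand, which makes its counts uncertain. Why they were low was not tested.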
